A study of Mus musculus with 16 samples.

Results

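The genes described here are 9 of the 25719 genes listed for the livers of NKG2D-deficient (Klrk1-/-, here KO) and wild type C57BL6J (WT) mice: Gdpd3, Rilpl1, Tymp, Sco2, Dab1, Mrgpre, Nnmt, Gm20075 and Gm9008. They were picked by name because their RNA was seen to differ between KO and WT on 1 or both diets of this same experiment. The difference between genotypes is therefore what chose them, and it is given below mouse by mouse as a description. No p-value of a member is printed for it, and no support is drawn from it. Where members are counted under the rule for calling a gene, the count only describes the choice. The genes beside them on the chromosome and the other genes of their pathways, which the choice did not use, are tested. The response of the same genes to the diet within each genotype is given with its values from the fit across all genes, but it rests on the same mice as the choice and is not independent of it.

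Whole livers of 16 male mice were sequenced, with 1 library for each mouse. On a normal chow diet (NCD) there were 4 WT mice (numbered 1, 2, 3 and 5) and 4 KO mice (1 to 4). After 3 weeks on a steatosis-steatohepatitis diet (SSD), a fatty liver diet, there were 5 WT mice (1 to 5) and 3 KO mice (1 to 3). All mice were 8 to 12 weeks old when an experiment began and came from colonies bred in 1 facility. Whether WT and KO mice shared litters is not given in the sources used here, so the Klrk1 deletion and the breeding line that carries it cannot be told apart. In a whole organ, fewer cells of a type and less RNA per cell cannot be told apart either.

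The members do unrelated work in the cell. NKG2D is an activating receptor of NK cells and T cells that reads stress ligands on other cells, and Klrk1 encodes it. Nnmt is an enzyme abundant in liver that spends the methyl donor S-adenosylmethionine on nicotinamide, and so stands between NAD metabolism and methyl group metabolism. Tymp and Sco2 are housekeeping genes of nucleoside breakdown and of the mitochondrial respiratory chain. Gm20075 and Gm9008 carry the tag of retrogenes in GENCODE M39, that is, copies of a spliced messenger RNA that were written back into the genome at another place, and their parent genes are Btf3l4 and Rnf26.

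The sequences of the retrogenes come first, because they decide how far the counts of these members can be trusted. Gm9008 was laid against the spliced transcript of Rnf26 on GRCm39 over 2322 aligned bases, with 17 mismatches and 5 gap bases, an identity of 99.05%. Only 706 of the 2254 windows of 100 bases, the length of a read here, were identical, or 31.3%. The stretch shown holds 2 differing bases, in capitals, so a read that covers either one can be told from the parent. The Gm9008 stretch lies at chr6:76474447-76474546 and that of Rnf26 at chr9:44024079-44024178, both on the minus strand and both printed 5′ to 3′ as transcribed.
Gm9008: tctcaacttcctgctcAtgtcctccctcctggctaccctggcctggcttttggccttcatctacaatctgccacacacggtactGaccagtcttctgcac
Rnf26: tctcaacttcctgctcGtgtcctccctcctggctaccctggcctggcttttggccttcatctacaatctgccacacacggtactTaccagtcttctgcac

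For Gm20075 and Btf3l4 the identity was 99.72% over 2143 aligned bases, with 5 mismatches and 1 gap base. Here 1575 of 2062 windows were identical, or 76.4%, and the 474 coding bases held 0 differences. The first 100 bases of the Gm20075 coding sequence, on the minus strand at chr13:96217738-96217837, cannot be told from the parent, in which the same letters are spread over exons between chr4:108683365 and chr4:108687768. Reads from such stretches fit both places equally well, and the counts of this pair are uncertain to that extent.
Gm20075: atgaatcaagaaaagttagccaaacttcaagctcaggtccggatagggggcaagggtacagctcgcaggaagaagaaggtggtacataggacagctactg

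The other sequences shown are the promoters of Gdpd3 and Rilpl1, the members whose levels moved together most closely among mice on different chromosomes. Each is the 250 bases before the RefSeq start site, found by exact match on GRCm39. Gdpd3 has its stretch on the plus strand at chr7:126365336-126365585, with 65.2% G and C and 6 CpG. Rilpl1 has its stretch on the minus strand at chr5:124669455-124669704, with 69.2% G and C and 17 CpG. Motifs searched on both strands were the TATA box (letters TATAAA), the CCAAT box (letters CCAAT), the GC box (letters GGGCGG) and the E-box (letters CACGTG). Gdpd3 held none of them, and Rilpl1 held 1 CCAAT, in capitals, a motif found in 33.8% of the 32536 stretches of the same length. Shares for the others were 12.3% for the TATA box, 33% for the GC box and 6.04% for the E-box.
Gdpd3: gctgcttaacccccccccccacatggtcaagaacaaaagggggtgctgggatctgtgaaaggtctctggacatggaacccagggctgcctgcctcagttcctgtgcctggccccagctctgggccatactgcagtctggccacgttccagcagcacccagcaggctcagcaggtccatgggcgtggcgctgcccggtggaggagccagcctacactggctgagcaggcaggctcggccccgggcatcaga
Rilpl1: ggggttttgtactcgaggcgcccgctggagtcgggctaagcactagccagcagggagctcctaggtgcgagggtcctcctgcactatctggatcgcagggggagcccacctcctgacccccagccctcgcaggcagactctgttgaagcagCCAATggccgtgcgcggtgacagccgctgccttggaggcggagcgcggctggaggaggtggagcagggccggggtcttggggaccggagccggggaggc

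Depth did not set the groups apart by much, with 19892025 to 28936707 reads on genes per library and 20842235 to 22428933 in the KO mice on NCD. Principal components of 13068 genes parted the diets on the first component (48.6% of the variance) and the genotypes on the second (14.7%), where KO mice had scores of −6.5 or lower and WT mice −3.2 or higher. WT mouse 1 on SSD stood apart, and so, less far, did KO mouse 3 on NCD. In every KO library Klrk1 was low, which checks the labels: 2, 4, 7 and 1 reads in KO mice 1 to 4 on NCD and 1, 2 and 5 reads in KO mice 1 to 3 on SSD. WT mice had 23.2 ± 3.85 normalized counts (reads divided by 1 factor per library; SD, n = 4) on NCD and 46.1 ± 17.4 (n = 5) on SSD, against 4.30 ± 3.33 (n = 4) and 2.29 ± 1.76 (n = 3) in KO. On the scale of log2(normalized count + 1), used for all differences here, the KO level was lower by −2.40 (SE 0.46, limma adjusted p 0.00724) on NCD and −3.90 (SE 0.41, adjusted p 0.00165) on SSD.

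A gene was called where limma's adjusted p was under 0.05 and the log2 difference was beyond 1. With KO set against WT, 8 of the 9 members met this rule on NCD (6 higher and 2 lower, all but Rilpl1) beside 1.70% of the 12845 genes tested, and 8 of 9 met it on SSD (7 higher and 1 lower, all but Nnmt) beside 1.15% of 13116. The values of the genotypes did not overlap for 7 members on NCD, where 19.3% of genes had no overlap, and for 8 on SSD, where 17.9% had none. Adjusted p without a limit on size was passed by 13.1% of genes on NCD and 2.90% on SSD. Over both diets at once, all 7 KO mice lay beyond all 9 WT mice for 6 members (Gm20075, Gm9008, Dab1, Tymp, Sco2 and Mrgpre) and for 1.42% of the 13068 genes with a level to compare. Since this contrast chose the genes, these counts only describe the choice. Without KO mouse 3 on NCD, which stood apart, the log2 differences there moved most for Gdpd3 (3.13 to 4.03), Rilpl1 (1.86 to 2.56) and Nnmt (−2.87 to −2.09). Without WT mouse 1 on SSD they moved most for Dab1 (3.57 to 3.85), Nnmt (−1.43 to −1.18) and Gm20075 (5.20 to 4.98).

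**Figure D1:**
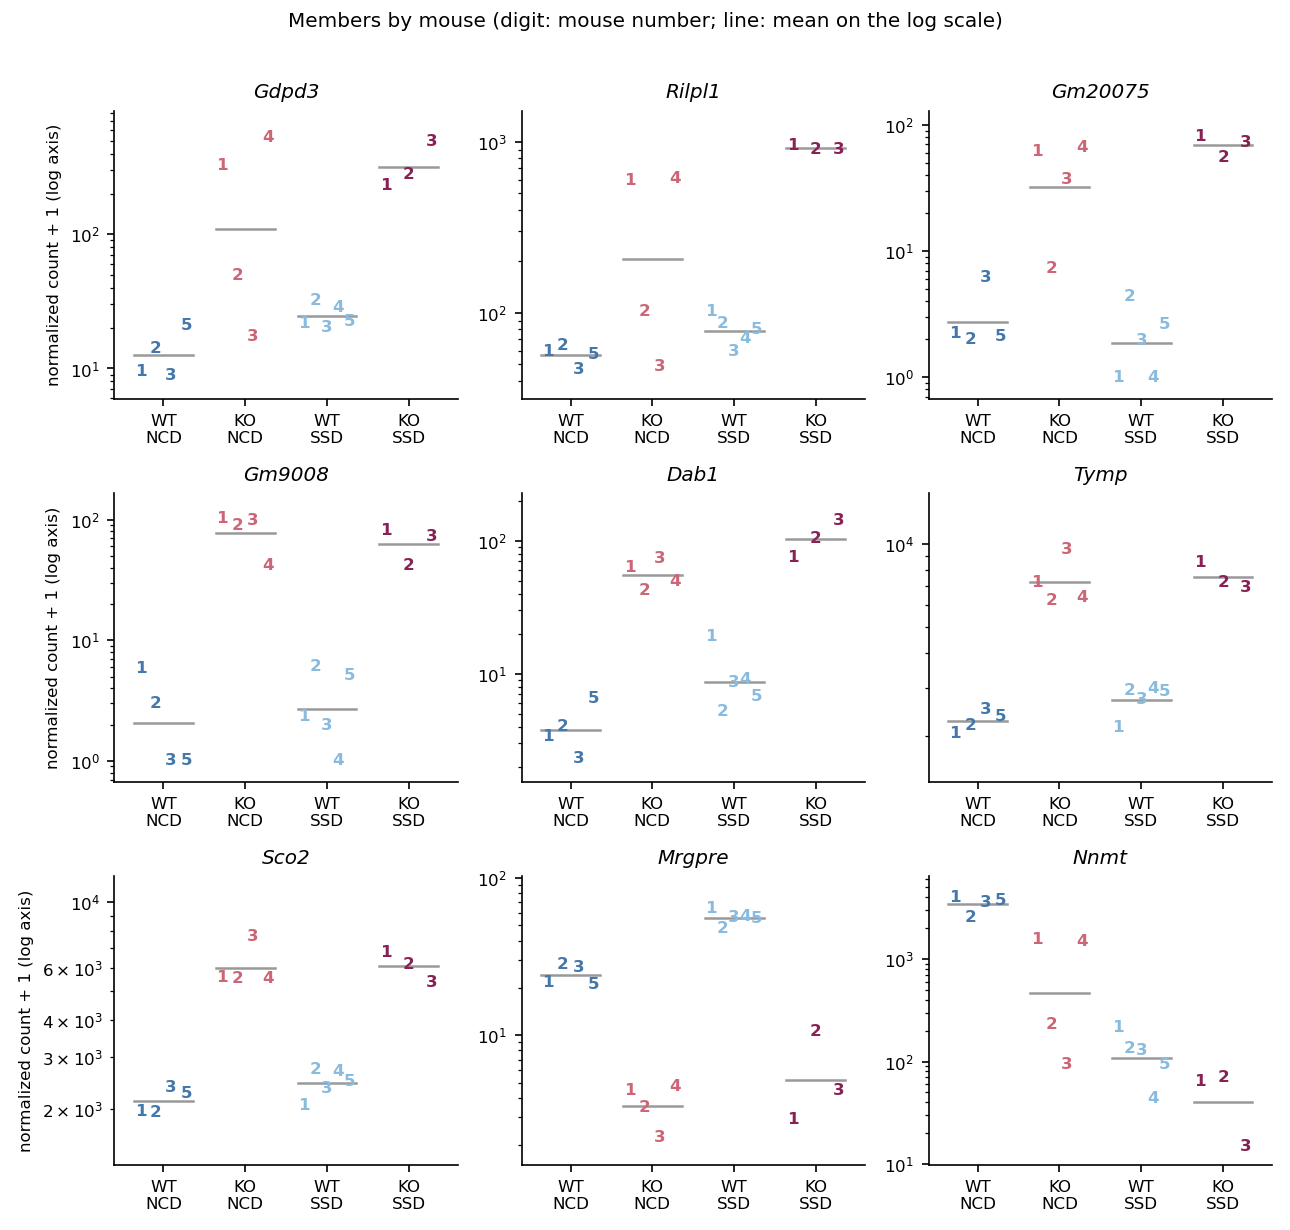
Normalized count + 1 of each of the 9 genes on a log axis, by group of genotype and diet, with each mouse shown as its number and a line at the group's mean on the log scale. For Gdpd3 and Rilpl1 on NCD, KO mouse 3 (16.2 and 47.3) sits among the WT mice while KO mouse 4 (522 and 605) sits far above them.

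Gdpd3, a membrane phosphodiesterase that cleaves lysophospholipids, lies on the plus strand at chr7:126365506-126374821 (all coordinates of genes are GRCm39). On NCD the WT mice 1, 2, 3 and 5 had 8.44, 13.1, 7.82 and 19.9 normalized counts, and the KO mice 1 to 4 had 326, 48.5, 16.2 and 522. KO mice 1 and 4 were therefore far above every WT mouse, mouse 2 was moderately above, and mouse 3 lay inside the WT range. On SSD the WT mice 1 to 5 had 20.6, 31.3, 19.0, 27.5 and 21.2, and the KO mice 1 to 3 had 229, 279 and 492. Here every KO mouse was above every WT mouse. The log2 difference was 3.13 on NCD and 3.69 on SSD. On NCD it ran from 2.38 to 4.03 when each mouse was left out in turn.

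Rilpl1, a protein of lysosomes and cilia that binds phosphorylated Rab GTPases, lies on the minus strand at chr5:124631143-124669454. WT mice on NCD had 57.9, 63.4, 45.6 and 56.3 normalized counts, and the KO mice 1 to 4 had 590.5, 101, 47.3 and 605. The order of the KO mice was that of Gdpd3, with mice 1 and 4 high, mouse 2 somewhat above WT and mouse 3 inside the WT range. On SSD the WT mice had 101, 85.3, 58.1, 69.3 and 79.2, and the KO mice had 950.3, 900.2 and 902. All KO mice on SSD were thus high and within a narrow band, with the highest 1.06 times the lowest (of normalized count + 1). On NCD the same ratio was 12.6 in KO mice, and only 0.0995% of 13068 genes spread at least as far among those 4 mice. For Gdpd3 the ratio in KO mice on NCD was 30.4, with 0.0306% of genes as wide. The log2 difference of Rilpl1 was 1.86 on NCD, with a range of 1.34 to 2.56 when each mouse was left out, and 3.55 on SSD.

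Over all 16 mice the levels of Gdpd3 and Rilpl1 had a Pearson r of 0.962, the highest that any gene reached with either. The 16 points share 4 groups of genotype and diet, so this is a description of those groups as much as of single mice. The next genes most like Gdpd3 were Sbno1 (0.898) and Mphosph9 (0.875), and those most like Rilpl1 were Sbno1 (0.902) and Rilpl2 (0.898). Sbno1, Mphosph9 and Rilpl2 all lie beside Rilpl1 on chromosome 5, and none lies near Gdpd3 on chromosome 7.

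**Figure D2:**
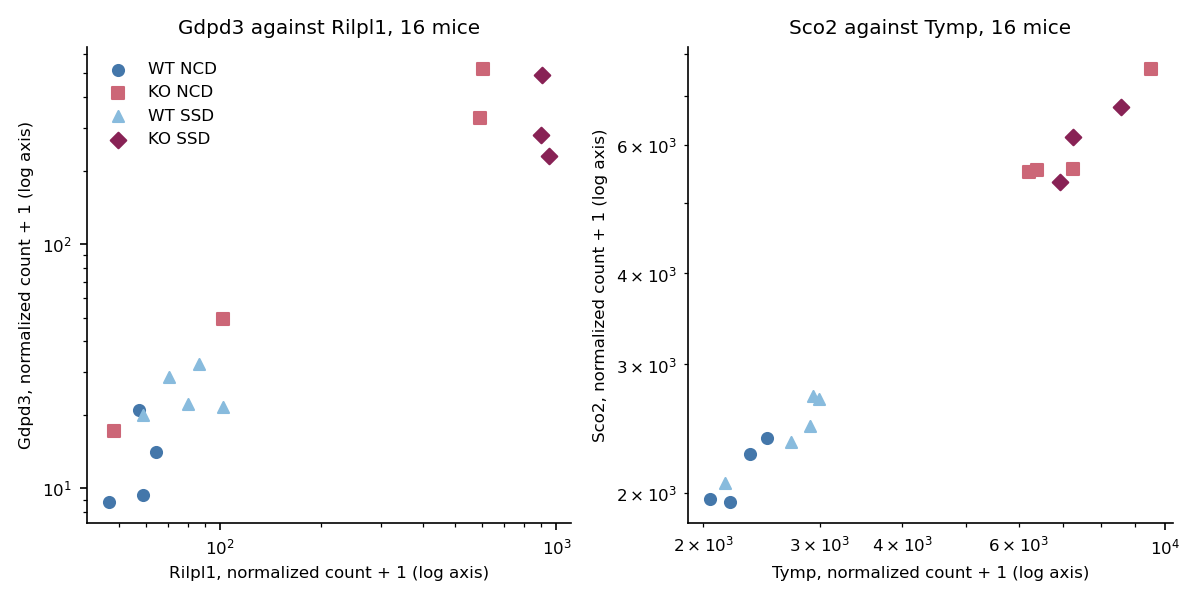
Normalized count + 1 of Gdpd3 against Rilpl1 and of Sco2 against Tymp, each point 1 of 16 mice, both axes on a log scale, with shape and colour by genotype and diet. KO mice on NCD are scattered along the whole Gdpd3 to Rilpl1 diagonal (r = 0.962), while for Sco2 and Tymp (r = 0.996) the 7 KO mice form 1 cloud above the 9 WT mice.

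Tymp, thymidine phosphorylase, splits thymidine into thymine and a sugar phosphate, and Sco2 delivers copper to cytochrome c oxidase. They overlap on the minus strand of chromosome 15, Tymp at chr15:89256134-89261242 and Sco2 at chr15:89255840-89258049. Of their exonic bases 856 are shared, which is 42% of Tymp and 68.3% of Sco2, so reads there cannot be assigned to 1 of the 2 genes by position. Tymp had 2046, 2191, 2494 and 2354 normalized counts in WT mice and 7243, 6214, 9496 and 6382 in KO mice on NCD. On SSD it had 2159, 2931, 2714, 2989 and 2900 in WT and 8551, 7242 and 6926 in KO. Every KO mouse was above every WT mouse on both diets. The log2 differences were 1.67 on NCD and 1.47 on SSD.

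Sco2 had 1961, 1943, 2375 and 2257 normalized counts in WT and 5567, 5520, 7641 and 5540 in KO on NCD, and 2062, 2713, 2344, 2686 and 2471 in WT against 6768, 6163 and 5339 in KO on SSD. No KO mouse came near the WT range, and KO mouse 3 on NCD was the highest for Sco2 and for Tymp. The log2 differences of 1.5 and 1.31 were close to those of Tymp. The ratio of Sco2 to Tymp was 0.939 ± 0.0349 (SD, n = 4) in WT and 0.832 ± 0.0555 (n = 4) in KO on NCD, and 0.899 ± 0.0427 (n = 5) and 0.804 ± 0.0416 (n = 3) on SSD. Sco2 thus exceeded WT by a slightly smaller factor than Tymp did. Per kilobase of transcript, mean levels were 1115 in WT and 3600 in KO for Tymp and 1781 and 5064 for Sco2 on NCD. Beside each other, the genes most like Tymp were Sco2 (0.996), Zfp275 (0.964) and Rtel1 (0.935), and those most like Sco2 were Tymp, Zfp275 (0.967) and Ecm1 (0.941).

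Gm9008, the Rnf26 copy, lies on the minus strand at chr6:76472415-76474767. WT mice on NCD had 4.82, 2.01, 0 and 0 normalized counts and KO mice had 102, 88.3, 97.0 and 40.6, while on SSD the WT mice had 1.33, 5.07, 0.952, 0 and 4.08 and the KO mice 81.1, 41.0 and 71.1. In WT the gene was at or near 0, with at most 3 reads in 3 of 4 mice on NCD and 3 of 5 on SSD, and every KO mouse lay far above. The log2 differences of 5.26 and 4.55 depend on the pseudocount because WT is so low, and with one of 10 they were 2.93 and 2.57. Gm20075, the Btf3l4 copy, lies on the minus strand at chr13:96215724-96217884 inside Sv2c, with 0 bases in an exon of that gene, and Sv2c itself had at most 2.53 normalized counts in any mouse. Its WT mice had 1.21, 1.01, 5.21 and 1.10 on NCD and 0, 3.38, 0.952, 0 and 1.63 on SSD. Its KO mice had 60.9, 6.22, 36.1 and 65.2 on NCD and 80.2, 53.8 and 72.0 on SSD. KO mouse 2 on NCD was close to the highest WT mouse, and all other KO mice were well above. The log2 differences were 3.55 and 5.20, or 1.895 and 2.81 with a pseudocount of 10.

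The parent genes, named here after their values were seen, were lower in KO or did not pass. Rnf26, an endoplasmic reticulum ubiquitin ligase at chr9:44006928-44024814, fell from 254 ± 8.76 (SD, n = 4) to 119 ± 20.2 (n = 4) on NCD, a log2 difference of −1.10 (SE 0.13, limma adjusted p 0.000455), and went from 236 ± 17.8 (n = 5) to 128 ± 26.3 (n = 3) on SSD, a difference of −0.89 (SE 0.14, adjusted p 0.0114) that is under the limit on size. WT and KO mice did not overlap for Rnf26 on either diet. Btf3l4, a relative of the transcription factor Btf3 at chr4:108671492-108690811, had log2 differences of −0.19 (adjusted p 0.358) and −0.32 (adjusted p 0.0812). Gm9008 and Rnf26 added together came to 256 ± 10.1 in WT and 201 ± 16.9 in KO on NCD, and to 238 ± 16.7 and 192 ± 8.65 on SSD. Gm9008 made up 0.651% of that sum in WT and 40.4% in KO on NCD, and 0.988% and 33.7% on SSD. For Gm20075 and Btf3l4 the sums were 281 ± 48.1 in WT and 285 ± 19.6 in KO on NCD and 247 ± 10.5 and 265 ± 6.83 on SSD, with the copy at 0.757%, 14.5%, 0.488% and 25.8% of the sum. How the reads were shared between copy and parent was not tested.

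**Figure D3:**
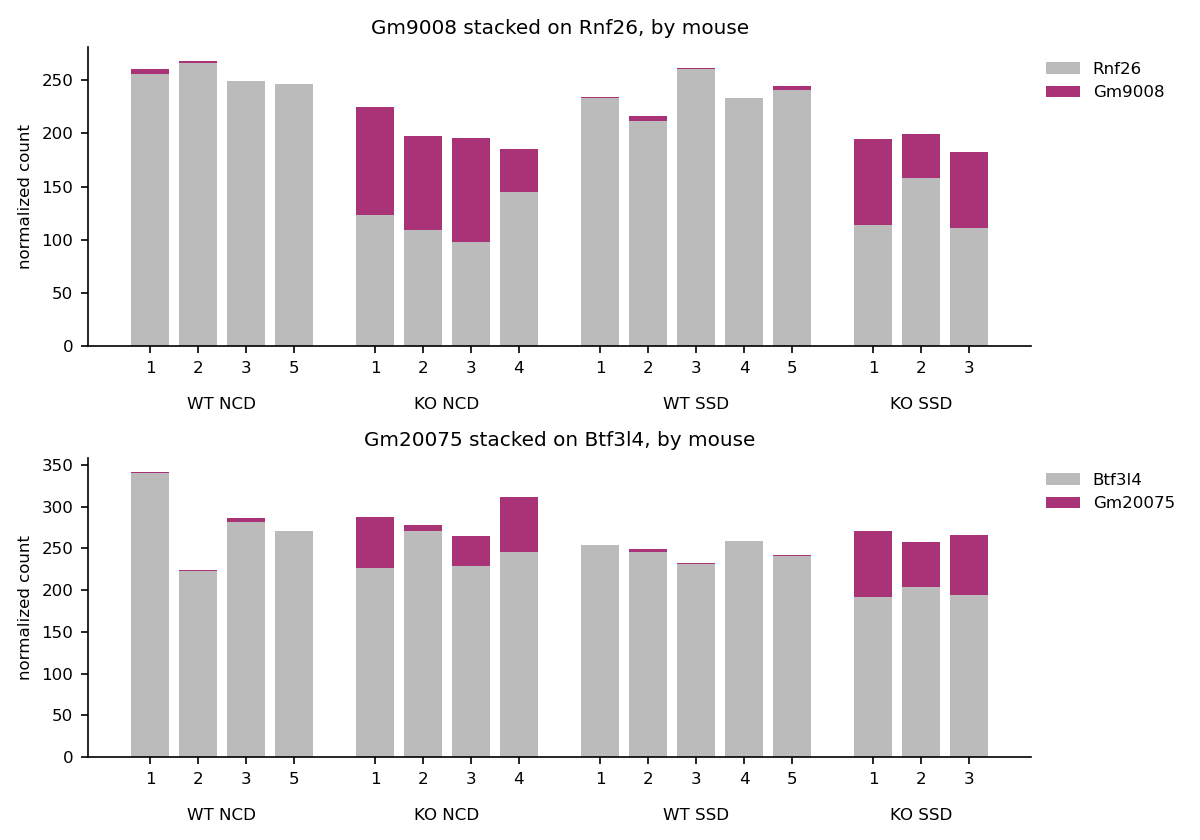
Normalized counts of each retrogene (purple) stacked on its parent gene (grey), 1 bar per mouse, Gm9008 on Rnf26 above and Gm20075 on Btf3l4 under it. Rnf26 is lower in each of the 7 KO mice than in the 9 WT mice, and the mean height of both genes together is 256 in WT and 201 in KO on NCD, and 238 and 192 on SSD.

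Dab1, the adaptor that carries the Reelin signal from its lipoprotein receptors into the cell and is best known from neurons, lies on the plus strand at chr4:103476556-104602041. On NCD the WT mice had 2.41, 3.02, 1.30 and 5.52 normalized counts and the KO mice 62.0, 41.1, 72.1 and 48.0. On SSD the WT mice had 17.9, 4.22, 7.61, 7.995 and 5.72 and the KO mice 74.4, 104 and 141. KO mice were above WT mice throughout, although WT mouse 1 on SSD was raised over the other WT mice. The log2 differences were 3.87 and 3.57, or 2.32 and 2.64 with a pseudocount of 10. The genes most like Dab1 over the 16 mice were Map3k5 (r = 0.928), Ap2b1 (0.926) and Polg (0.922), and those most like Gm9008 were Ap2b1 (0.946), Tymp (0.919) and Mtg1 (0.917). Gm20075 was most like Gm43162 and Tymp (0.909 each) and Sco2 (0.902).

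Mrgpre, an orphan MAS-related G protein-coupled receptor known from sensory neurons, lies on the minus strand at chr7:143332100-143338237, 16.97 Mb from Gdpd3. It was lower in KO. WT mice had 20.5, 27.2, 26.1 and 19.9 normalized counts on NCD against 3.45, 2.49, 1.24 and 3.69 in KO, where all 4 mice had 3 reads or fewer. On SSD the WT mice had 63.1, 46.5, 55.2, 56.0 and 53.9 and the KO mice 1.93, 9.64 and 3.43. The genotypes were far apart on both diets, with log2 differences of −2.76 and −3.43, or −1.39 and −2.14 with a pseudocount of 10. Cd81 (0.942), Tdg (0.933) and Rnf26 (0.928) were most like it.

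Nnmt, nicotinamide N-methyltransferase, lies on the minus strand at chr9:48503177-48516453 and was lower in KO on NCD. Its WT mice there had 3994, 2556, 3552 and 3732 normalized counts, and KO mice 1 to 4 had 1535, 226, 92.0 and 1464. Every KO mouse was lower than every WT mouse, and mice 2 and 3, which had the least Gdpd3 and Rilpl1 of the KO mice, also had the least Nnmt. On SSD the WT mice had 215, 132, 127, 42.6 and 92.3 and the KO mice 62.8, 68.3 and 13.7, so that the genotypes overlapped. The log2 differences were −2.87 on NCD and −1.43 on SSD, with ranges of −3.44 to −2.09 and −1.82 to −0.70 when each mouse was left out. In KO mice on NCD the highest Nnmt value was 16.5 times the lowest (of normalized count + 1), a spread reached by 0.0842% of genes. Across the 16 mice Nnmt had r between −0.535 and 0.103 with the other members. It was most like Dus2 (0.965), Sdf2l1 (0.946) and Entpd7 (0.943).

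**Figure D4:**
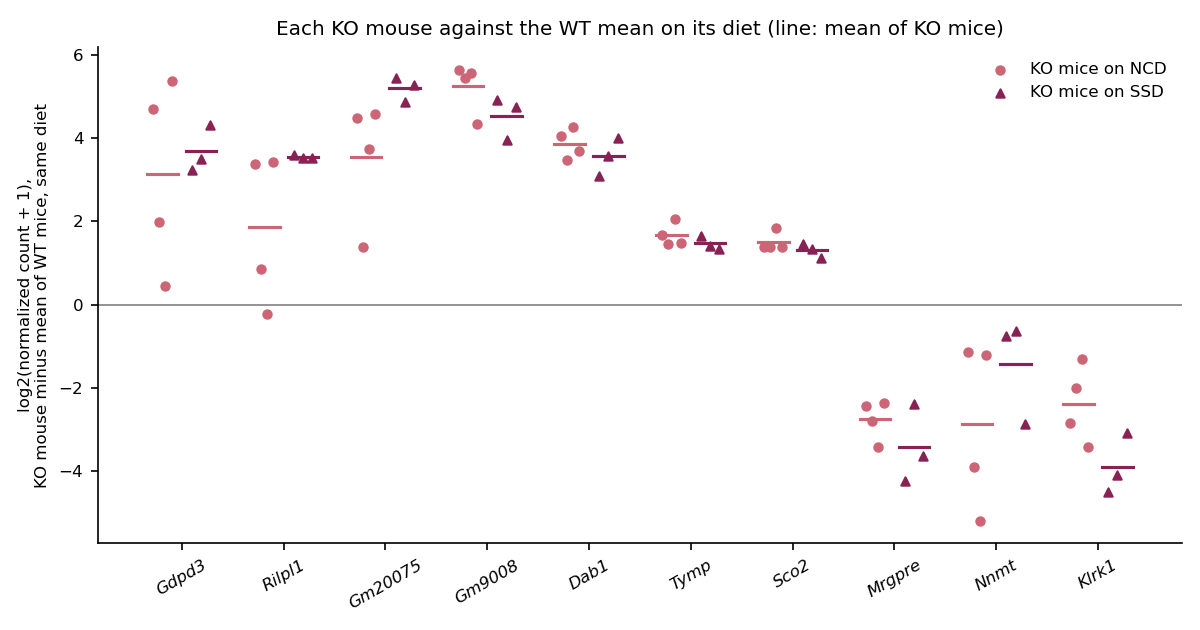
Each KO mouse as its log2(normalized count + 1) minus the mean of the WT mice on the same diet, for the 9 genes and Klrk1, with circles for NCD, triangles for SSD and a line at the mean of the KO mice. For Gdpd3 on NCD the 4 KO mice run from 0.46 to 5.38 above WT, whereas for Tymp and Sco2 all KO mice lie close together.

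Per kilobase, the members covered a wide range of levels. In WT on NCD the order of means was Nnmt (4384), Sco2 (1781), Tymp (1115), Rilpl1 (51.6), Gdpd3 (17.0), Mrgpre (6.22), Dab1 (1.83), Gm20075 (0.987) and Gm9008 (0.726). In KO on NCD it was Sco2 (5064), Tymp (3600), Nnmt (1051), Gdpd3 (315), Rilpl1 (310), Gm9008 (34.9), Dab1 (33.4), Gm20075 (19.5) and Mrgpre (0.722). In WT on NCD the 3 lowest genes overlapped with each other and the others were apart. In KO on NCD Sco2 overlapped with Tymp, Nnmt with Gdpd3 and Rilpl1, Gdpd3 also with Gm9008, Dab1 and Gm20075, and those 3 with each other, so only the place of Mrgpre, and of Sco2 and Tymp above the rest, was separate. The GC fraction of the members' transcripts ran from 0.390 (Gm20075) to 0.612 (Tymp) beside a median of 0.507 over 13068 genes, and their length from 724 bases (Gdpd3) to 3761 bases (Mrgpre) beside a median of 1790.

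The diet contrasts within each genotype use the same 16 mice that chose the genes. A gene picked for a difference on 1 diet can owe a diet difference to that choice, and this holds most for Nnmt, which met the call rule on NCD only, and Rilpl1, which met it on SSD only. The p-values of the members for the diet are therefore a description and support nothing. In WT mice 6 members had enough reads to be tested, and 2 of them passed beside 9.01% of all 13091 genes tested. Nnmt fell by 4.98 (SE 0.35, limma adjusted p 1.44e-06) on SSD and Mrgpre rose by 1.2 (SE 0.19, adjusted p 0.000594), both with no overlap between the diets. Mrgpre lost its call for size, not for p, with a pseudocount of 10 (0.96) and after quantile normalization (0.83). Gdpd3 had a difference of 0.97 (SE 0.32, adjusted p 0.0338), just short of the limit on size. Rilpl1 (0.47, adjusted p 0.0644), Tymp (0.26, 0.0741) and Sco2 (0.20, 0.146) did not pass, and Gm20075, Gm9008 and Dab1 were under the minimum mean of 10 normalized counts. Gdpd3 passed without WT mouse 5 on NCD (1.22, adjusted p 0.0147) or without WT mouse 1, 3 or 5 on SSD (1.02, 1.04 and 1.01, adjusted p 0.0349, 0.0437 and 0.0443), and also with a pseudocount of 0.5 (1.003) and after scaling to the same total (1.29). Without WT mouse 1 on SSD, Tymp (0.35, adjusted p 0.00799) and Sco2 (0.26, adjusted p 0.0462) passed for p but not for size.

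In KO mice 8 members were tested for the diet and 2 passed beside 5.46% of all 12904 genes tested. Nnmt fell by 3.54 (SE 0.88, limma adjusted p 0.0111) and Rilpl1 rose by 2.16 (SE 0.72, adjusted p 0.0404). The Rilpl1 call was lost without KO mouse 2 or 3 on NCD or any 1 of the 3 KO mice on SSD (adjusted p 0.0562 to 0.108), with edgeR (1.45, adjusted p 0.0732) and with DESeq2 (adjusted p 0.234), and that of Nnmt was lost without KO mouse 3 on SSD (−2.81, adjusted p 0.0651). Dab1 had a difference of 0.90 (SE 0.24, adjusted p 0.0163) with no overlap between the diets, under the limit on size, and passed without KO mouse 3 on NCD (1.03, adjusted p 0.00876), without KO mouse 1 on SSD (1.13, adjusted p 0.0102) and after scaling to the same total (1.16). Gdpd3 (1.53, adjusted p 0.233), Gm20075 (1.09, 0.20), Gm9008 (−0.32, 0.488), Tymp (0.06, 0.773) and Sco2 (0.01, 0.946) did not pass. With the replicate number as a block Gm20075 passed (1.43, limma adjusted p 0.0397), and with a mouse left out its difference ran from 0.37 to 1.43. Mrgpre was under the minimum mean in KO. Whether the diet acted differently in the 2 genotypes was not tested, since that contrast holds the values that chose the genes.

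The 9 genes lie at 8 loci on 7 chromosomes, and only Tymp and Sco2 share a locus. In the coordinates of the deposited table, other listed genes overlap 4 of the 9, Gm43034 at Rilpl1, Sv2c at Gm20075, and Ncaph2 at Tymp and Sco2 besides the overlap of that pair, and the strand setting of the counting is not given in the sources used here, so reads in the overlaps are uncertain. Within 1 Mb of a member, 170 other genes were tested on NCD and 5 were called, or 2.94%, and 176 were tested on SSD with 6 called, or 3.41%, beside 1.70% and 1.15% of all genes. The count on NCD was 3 without KO mouse 3, and that on SSD was 3 without WT mouse 2 or without KO mouse 1 or 3. By adjusted p alone 31 (18.2%) and 19 (10.8%) passed, beside 13.1% and 2.90% of all genes. With DESeq2 on SSD, 9 neighbours and 366 of all genes tested were called, against 6 and 151 with limma. No gene within 1 Mb of Gm9008 had enough reads to be tested. Klrk1 itself lies at chr6:129587286-129600827, 53.11 Mb from Gm9008. Within 10 Mb of Klrk1, 1 of 128 genes was called on NCD, or 0.781% (Gm44243, 1.06, limma adjusted p 0.00554), beside 1.70% of all genes. On SSD 1 of 131 was called, or 0.763% (Rad51ap1, −3.26, limma adjusted p 0.0108), beside 1.15%. With a mouse left out, the counts near Klrk1 ran from 0 to 2 on NCD and from 1 to 6 on SSD.

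Around Mrgpre several genes were lower in KO on SSD. On SSD Tnfrsf23, a decoy receptor for the death ligand TRAIL with its start at −112.6 kb from that of Mrgpre, had 0 reads in all 3 KO mice and 15.99 to 36.5 normalized counts in WT mice, so that it was at least 8.68-fold lower against a floor of 3 reads per library (adjusted p 0.000921). Tnfrsf26 was lower by −3.09 (limma adjusted p 0.0185), and Dhcr7, the last enzyme of cholesterol synthesis, by −1.33 (adjusted p 0.00838), whereas on NCD Dhcr7 had a difference of 0.045 (adjusted p 0.814). Tnfrsf22, which lies between Tnfrsf26 and Tnfrsf23, did not pass on NCD (−0.531, limma adjusted p 0.219) or on SSD (−0.915, adjusted p 0.288). On NCD Tnfrsf23 was under the minimum mean, with 11.0 to 12.1 normalized counts in WT and 5.74, 0, 0 and 0 in KO mice 1 to 4. By adjusted p alone 6 of 17 genes near Mrgpre passed on NCD, or 35.3%, and 8 of 18 on SSD, or 44.4%. Among them were the tetraspanin Cd81, with −0.70 (adjusted p 0.000455) on NCD and −0.76 (adjusted p 0.00448) on SSD, and Nadsyn1, which makes NAD from its acid precursor and lies 17.2 kb away, with 0.33 (adjusted p 0.0375) and 0.44 (adjusted p 0.0392). Osbpl5, the nearest tested gene on the other side, did not pass on either diet.

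Around Rilpl1 the genes called on SSD went both ways, while those that passed by adjusted p alone were mostly higher in KO. Of 37 genes tested within 1 Mb on SSD, 1 was called higher in KO and 2 lower, with a median log2 difference of 0.10. On NCD 0 of 35 were called. On SSD Mphosph9, a centriole protein with its start at −242.1 kb, was higher in KO by 1.04 (limma adjusted p 0.00833), while Kntc1 (−2.60, adjusted p 0.0248) and Hcar2 (−1.90, adjusted p 0.0440) were lower. By adjusted p alone 8 of 37 genes passed on SSD, or 21.6%. Kntc1 (start at −743.4 kb) and Hcar2 (−629.5 kb) were the lower ones. The others were higher in KO, with starts from −242.1 to −29.8 kb. Besides Mphosph9 they were Rilpl2, the closest relative of Rilpl1, at −29.8 kb (0.91, limma adjusted p 0.0038), and Sbno1 (0.69, adjusted p 0.00721). Cdk2ap1 (0.67, adjusted p 0.0248), 2810006K23Rik (0.58, adjusted p 0.0281) and Kmt5a (0.52, adjusted p 0.0338) completed them. On NCD 4 of 35 passed in this way, or 11.4%. The genes directly beside Rilpl1, Snrnp35 and Tmed2, had differences of 0.26 and 0.02 on SSD and did not pass.

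Beside Nnmt, Zbtb16, a zinc finger transcription factor 62.4 kb from it, was higher in KO on NCD by 3.05 (SE 0.18, limma adjusted p 1.68e-06), against 0.42 (adjusted p 0.226) on SSD, and Nxpe2 was lower on NCD by −1.07 (adjusted p 0.00671). Near Gdpd3, Gm44729 was lower on NCD (−1.51, adjusted p 0.0290), and Ypel3, directly beside Gdpd3, had 0.66 (adjusted p 0.0156), while Mapk3 on its other side had −0.11 (adjusted p 0.422). Near Tymp and Sco2, Creld2 was lower on NCD (−1.58, adjusted p 0.0113), Odf3b had 0.76 (adjusted p 0.0327) and Ncaph2, which overlaps them, −0.10 (adjusted p 0.467). Around Dab1 the flanking genes Oma1 (−0.53, adjusted p 0.0254) and C8b (−0.60, adjusted p 0.00955) were lower on NCD, both under the limit on size, and had −0.22 (adjusted p 0.328) and 0.08 (adjusted p 0.810) on SSD. Iqgap2 and Poc5, on either side of Gm20075, did not pass on either diet.

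**Figure D5:**
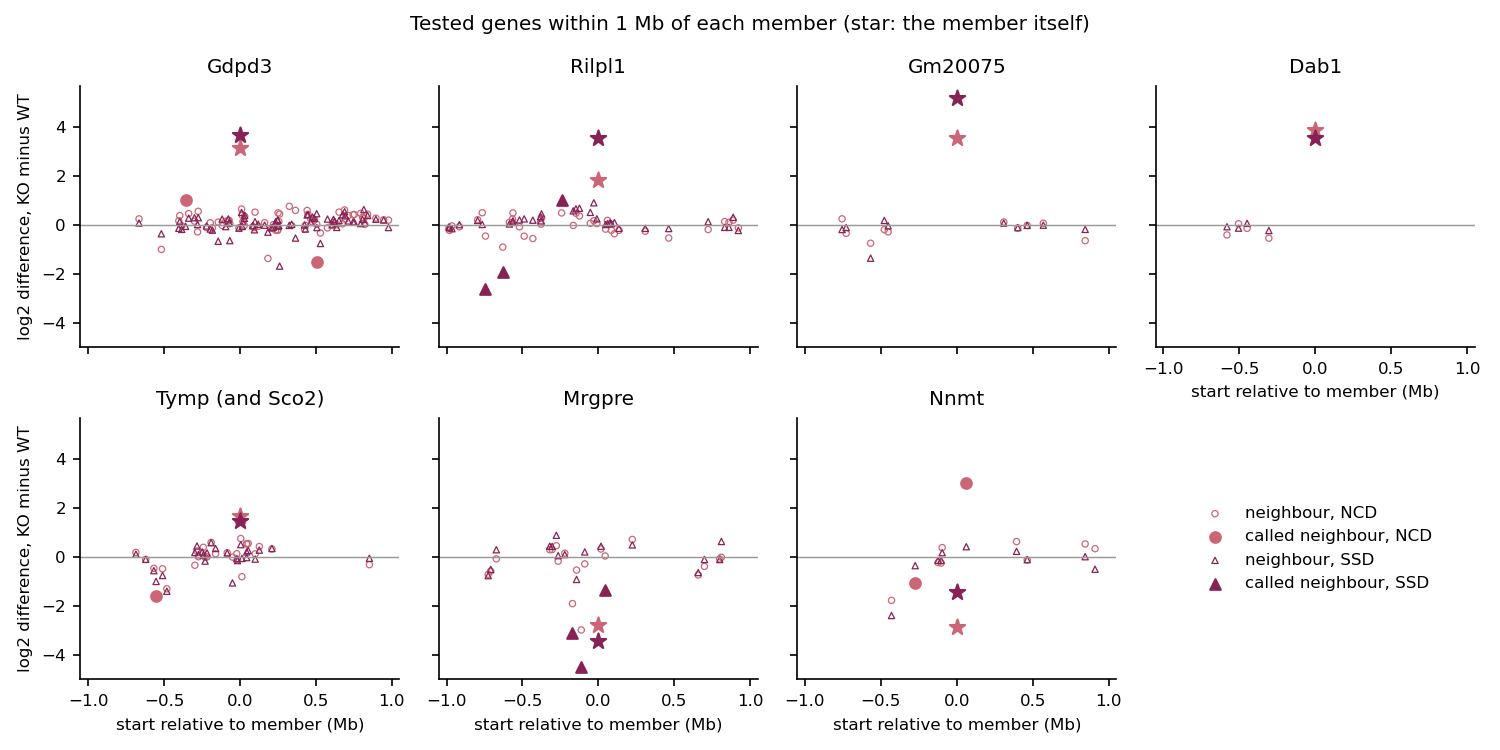
The log2 difference of KO minus WT for genes tested on at least 1 diet within 1 Mb of each member, against the distance between start positions in Mb, with circles for NCD, triangles for SSD, filled symbols for called genes and a star for the member at 0. Near Mrgpre, Tnfrsf23 and Tnfrsf26 lie below 0 with the member, and near Nnmt the filled circle at 3.05 is Zbtb16.

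The members' partners by function were taken next. None of the genes of 8 lists (NAD, methyl group, lysophospholipid, RILP family, Reelin, pyrimidine nucleoside and cytochrome c oxidase genes, and MAS-related receptors) was called by limma in KO against WT. These were 0 of 136 on NCD and 0 of 137 on SSD, beside 1.70% and 1.15% of all genes. With so few genes, 0 is close to those shares. Nnt, listed under 2 overlapping identifiers, counts as 2. At an unadjusted p under 0.05 there were 52 (38.2%) and 40 (29.2%), beside 31% and 22.9% of all genes tested, edgeR called 0 and 0, and DESeq2 0 and 2. By adjusted p alone 15 (11%) passed on NCD and 3 (2.19%) on SSD, beside 13.1% and 2.90% of all genes. In the NAD list these were Nadsyn1, Nampt and Sirt1 of 22 on NCD and Nadsyn1 of 23 on SSD, with median log2 differences of −0.06 and 0.09. In the methyl group list it was Mat1a, which makes the methyl donor of Nnmt, 1 of 18 on NCD and 0 of 18 on SSD. Lypla1 and Mgll of 17 lysophospholipid genes, Rilp and Spag9 of 17 RILP family genes, Pik3r1 and Rapgef1 of 16 Reelin genes, Dck and Upp2 of 23 pyrimidine genes, and Coa5, Cox17 and Cox20 of 23 cytochrome c oxidase assembly genes passed in this way on NCD. On SSD only Rilpl2 and Rrm1 joined Nadsyn1. All 19 other MAS-related receptors were under the minimum mean in both comparisons. In response to the diet, 15 of 138 partners (10.9%) were called in WT and 12 of 137 (8.76%) in KO, where both identifiers of Nnt are among the 12, beside 9.01% and 5.46% of all genes.

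Of 161 genes in all the pathway lists, 2.48% were called on NCD, beside 1.70% of all genes. These were Klrk1 and 3 of the 16 clock genes tested. The 3 were Per2 (−1.19, limma adjusted p 0.00117), Per3 (−1.30, adjusted p 0.0124) and the clock repressor Nr1d1 (1.22, adjusted p 0.0113). On SSD Klrk1 and Per1 (−1.24, limma adjusted p 0.0148) were called of 162, or 1.23%, beside 1.15% of all genes. Of the genes known to differ between C57BL/6 substrains 0 of 5 Ensembl identifiers tested were called by limma, edgeR or DESeq2 on either diet. Nnt has 2 overlapping identifiers among the 5, and these and that of Nlrp12 were the 3 at an unadjusted p under 0.05 on NCD, with 0 on SSD. Nnt, the mitochondrial transhydrogenase, had −0.27 and −0.07, Nlrp12 0.62 (adjusted p 0.0271) and 0.18, and Cyfip2 0.14 and −0.25, while Mmrn1 was under the minimum mean and Crb1 had no read in any mouse. Cell markers were examined too. The B cell gene Ighm was called higher in KO on NCD (1.34), and the summed level of 10 monocyte and macrophage genes was 4594 to 5636 in KO and 5600 to 13007 in WT on SSD, with Cd68 (−1.36) and Marco (−2.45) called. None of 9 hepatocyte genes was called by limma (3 at an unadjusted p under 0.05 on each diet), and their sum was 2313100 to 3020800 in KO and 2406400 to 2711100 in WT on NCD. On SSD the sum was higher in KO with no overlap, at 2129900 to 2294400 against 1574100 to 2006900 in WT. The part of clock genes and of these markers in the members' differences was not tested.

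Both diets together gave 28 genes called in the same direction, 8 higher and 20 lower in KO, and 0 called in opposite directions. The members supply 7 of the 28 and 6 of the 8 higher ones. Since this contrast chose the members, these shares only describe the choice. Outside the members and Klrk1, genes were ordered by the smaller in size of their 2 differences. The first 5 in this order were lower in KO. They were Gnal at −2.71 on NCD and −2.22 on SSD, the acute phase genes Saa2 (−2.19 and −2.47) and Saa1 (−2.05 and −2.12), the clock-linked deadenylase Noct (−2.09 and −2.17) and the heat shock gene Hspa1a (−2.02 and −2.06). Gm43162, the next, was higher (1.90 and 3.10), and another order would name other genes.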

How the data were processed

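Liver RNA of 16 mice was sequenced as single reads of 100 bases. By the study's methods and the submitters' processing notes, reads were checked with FastQC, aligned with STAR to GRCm39 and counted with FeatureCounts on GENCODE M26. The library kit is an mRNA kit in the labels and a total RNA kit in the methods. The authors deposited 1 table of normalized counts (a signal, reads divided by 1 factor per library; DESeq2 is among the tools in their notes, and how the factors were made is not given in the sources used here), with the GC fraction and length of each gene as deposited columns. Whole reads were recovered for 100% of values (within 0.01 of a whole number).

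The members, lists and named genes were chosen with earlier results of these data known. limma 3.58.1 (R 4.3.3, trend) was fitted to log2(normalized count + 1) for each pair of groups over genes with a mean of at least 10 in that pair, with Benjamini-Hochberg adjustment over all genes tested. A gene was called at adjusted p under 0.05 and a log2 difference beyond 1. edgeR 4.0.16 and DESeq2 1.42.0 on the recovered reads, other pseudocounts, minimum means, scalings and fold limits, the replicate number as a block, 1 model of all groups and leaving out each mouse were alternatives. Values from at most 3 reads are counting noise at this depth of 19892025 to 28936707 reads. Named genes were the 9 members, Klrk1, called or nearest neighbours, called list genes (at most 3 per list), the substrain genes, the 3 genes most like each member and the 5 largest on both diets, and some genes under this rule are not reported here. Adjusted p-values rate a difference between groups against the spread between these mice. Litters and dates are not given, so variation between them could not be modelled. Sequences come from GRCm39, GENCODE M39 and RefSeq (starts matched for 6 of 9 members). The fit across all genes was tested on simulated data. In the counts as deposited, reads of near-identical copies may be split between them.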

Additional observations from a re-analysis of the deposited data

Results flagged for a closer look

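Among 30 groups of 4 or 5 mice in which a gene described here was examined for a mouse far from the rest, 3 held one, where chance gives about 1 in 20. Gm20075 in WT mice on NCD had 5.21 normalized counts in mouse 3, above the other 3 mice, at a level of few reads. Dab1 in WT mice on SSD had 17.9 normalized counts in mouse 1, the library that stood apart from the other WT mice on SSD over all genes. Sco2 in KO mice on NCD had 7641 normalized counts in mouse 3, above the other 3 mice.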

How the results depend on the processing

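Across 648 values of the members under other settings 608 stayed the same (in direction and side of the threshold where tested, and within 1 SD for values that were not tested, KO against WT among them), 11 became weaker, 12 stronger, 10 moved (all with a pseudocount of 10, Gdpd3 on SSD to 3.28 and Dab1 for the diet in WT to 0.49 and both differences each of Gm20075, Gm9008, Dab1 and Mrgpre between genotypes) and 7 changed sign. The changes of sign all concerned the diet in KO mice, for Tymp (0.06) at −0.011 without KO mouse 2 on NCD and −0.029 without KO mouse 1 on SSD (range −0.029 to 0.193 with a mouse left out), and for Sco2 (0.01) at −0.025 with the replicate block, −0.023, −0.027 and −0.025 without KO mice 1, 2 and 4 on NCD and −0.066 without KO mouse 1 on SSD (range −0.066 to 0.129). None of these passed. Klrk1 kept its call in all 18 alternatives on each diet (−2.76 to −1.24 on NCD, −4.31 to −2.15 on SSD), and with a minimum mean of 50 it was not tested.

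Scaling to the same total moved the median of all genes by 0.34 for the diet in WT, 0.25 for the diet in KO and −0.12 for KO against WT on SSD, and the called genes that were higher went from 67.9% to 87.2% and from 46.4% to 71.8% for the diet (55.8% in WT after quantile normalization). Counts of called genes also moved. Neighbours of members on NCD (5) were 3 with a pseudocount of 10, 3 with a minimum mean of 50, 14 with a fold limit of 1.5, 31 with none, 16 within 5 Mb and 3 to 6 with a mouse left out (3 without KO mouse 3). On SSD (6) they were 2 with the minimum of 50, 12 with 1.5, 19 with no fold limit, 13 within 5 Mb and 3 to 7 with a mouse left out (3 without WT mouse 2 or KO mouse 1 or 3). Within 10 Mb of Klrk1 the NCD count (1) was 0 with a pseudocount of 10, 4 with no minimum, 2 with edgeR, DESeq2 or the replicate block, 4 with 1.5, 15 with no fold limit and 0 to 2 with a mouse left out (0 without WT mouse 1 or KO mouse 3, 2 without WT mouse 5 or KO mouse 1). The SSD count (1) was 0 with the minimum of 50, 6 with DESeq2, 7 with the replicate block, 3 with all 4 groups in 1 model, 2 with no fold limit and 1 to 6 with a mouse left out (2 without WT mouse 3, 6 without WT mouse 5). Pathway genes on NCD (4) were 8 with 1.5, 22 with no fold limit and 4 to 5 with a mouse left out, and on SSD (2) they were 1 with the minimum of 50, 4 with DESeq2, 6 with the replicate block, 5 with 1.5, 6 with no fold limit and 1 to 3 with a mouse left out (1 without KO mouse 1 or 2). Members called for the diet in WT (2) were 1 with a pseudocount of 10, a minimum of 50 or quantile normalization and 2 to 3 with a mouse left out. In KO (2) they were 1 with no minimum, edgeR or DESeq2 and 0 to 2 with a mouse left out (1 without KO mouse 2 on NCD or KO mouse 2 on SSD, 0 without KO mouse 3 on SSD). The cause of these changes was not tested. The limit of no fold and the 5 Mb window were chosen after seeing the data.

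Equal replicate numbers did not pair the mice, since the correlations of their deviations ran from −0.146 to 0.237 and no comparison had all of them over 0.1. With the replicate block the KO diet difference of Gm20075 was 1.43 (limma adjusted p 0.0397). Depth limits Gm20075, Gm9008 and Dab1 in WT and Mrgpre in KO, where a few reads set the size of the difference.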
